A study of Mus with 15 samples.

Results

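Histone H2A carrying a single ubiquitin (H2AK119ub, here H2Aub) was examined at the 6 Iroquois homeobox genes, Irx1 to Irx6, in the thalamus of mice that had received cocaine or saline. The genes were taken by name from the RefSeq annotation of the mouse mm10 assembly, and they are 6 of the 21887 protein-coding genes to which the same measurements were applied. Each gene was read in a window made of its body plus 10 kb on each side. Both gene clusters, IrxA (Irx1, Irx2 and Irx4) and IrxB (Irx3, Irx5 and Irx6), were also read as whole intervals, from 10 kb before the first gene to 10 kb after the last. The 3 measures were the number of libraries with a peak, the covered length (bp of the window under the union of the peaks of a library) and the width of the widest peak that touches the window.

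The mark was profiled by ChIPmentation, in which Tn5 transposase inserts the sequencing adapters while the antibody-bound chromatin is still on the beads. All mice were Maged1 loxP animals aged 2 to 4 months. In the conditional knockout (cKO) Maged1 was deleted by a Cre recombinase under the vGluT2 promoter, which is active in glutamatergic neurons, whereas the Maged1 WT mice served as controls, so thalamic cells without this promoter activity keep the gene in both genotypes. Injections were of saline for 3 days in every mouse, and over the next 5 days of saline again or of cocaine at 20 mg/kg into the peritoneum, which asks whether cocaine changes H2Aub and whether the change depends on Maged1. There were 11 H2Aub libraries, each a pool of thalami of several mice (3 to 4 per the labels, at least 2 per the methods of the study): 6 were WT, with 3 after cocaine and 3 after saline, and 5 were cKO, with 2 after cocaine and 3 after saline. No label says how the pools were formed, so tests measure the spread between pools. The lists hold no RNA, and the tissue label could not be checked against expressed markers.

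The peak lists differed in length. In 9 libraries they held 7271 to 26055 peaks covering 4.24 to 17.2 Mb, while replicate 1 of cKO cocaine and replicate 1 of cKO saline stood apart with 54653 and 80713 peaks covering 21.2 and 27.6 Mb. Those 2 lists also held the narrowest peaks (median 198 to 206 bp, against 242 to 429 bp) and fold enrichments of up to 52.6, where the other lists stopped at 12.2. Mean covered length of a list was 14.2 ± 3.50 Mb (SD, n = 3) in WT cocaine and 8.35 ± 2.77 Mb (n = 3) in WT saline, a ratio of 1.70. The files give no read counts and the study states only a minimum that every library passed, so a list that is longer through deeper sequencing and one that is longer through more marked chromatin cannot be told apart. In a bulk tissue, fewer marked cells and less mark per cell cannot be told apart either.

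Irx genes encode homeodomain transcription factors of the TALE class, which carry an additional loop in the homeodomain. They pattern the early neural plate, and in the developing forebrain Irx3 is known to abut the territory of Six3 where the thalamic organizer forms. H2Aub is written by Polycomb repressive complex 1, whose best known targets are developmental regulators that a given cell type keeps silent, where the mark spreads over domains of several kilobases. Outside the brain, Irx4 is known from ventricular heart muscle, Irx3 and Irx5 from heart conduction, limb and fat tissue, and Irx6 from retinal bipolar cells.

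The IrxA cluster lies on chromosome 13, with Irx1 at chr13:71958232-71963723, Irx2 at chr13:72624430-72634196 and Irx4 at chr13:73259589-73269622 (mm10). IrxB lies on chromosome 8, with Irx3 at chr8:91798511-91801654, Irx5 at chr8:92357796-92361456 and Irx6 at chr8:92674289-92680956. Both clusters are sparse. Neighbouring members are 660.7 kb (Irx1 to Irx2), 625.4 kb (Irx2 to Irx4), 556.1 kb (Irx3 to Irx5) and 312.8 kb (Irx5 to Irx6) apart. The annotation places 5 long non-coding RNA genes in the windows: Gm20554 overlaps the body of Irx2 by 4135 bp, Gm36380, Gm39222 and Irx3os flank Irx3, and Crnde flanks Irx5.

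All 6 genes carried H2Aub in all 11 libraries. At Irx6 in cKO saline replicate 3 this rested on 1 peak of 117 bp with a q of 0.0648. A peak in all 11 libraries was found for 1713 of the 21887 protein-coding genes (7.83%). Over the 11 libraries the covered share of the window was 40.5% ± 9.32 (SD) at Irx5, 39.8% ± 11.3 at Irx3, 37.7% ± 8.12 at Irx4, 30.6% ± 5.41 at Irx1, 29.5% ± 7.69 at Irx2 and 12.6% ± 7.07 at Irx6. The median share of the 1713 genes was 5.68%, and among all protein-coding genes ranked by this share Irx5 stood at place 127 and Irx6 at place 421. Within a library, the 6 windows together were covered at 16.8 to 42.4% of their length, against 0.278 to 1.44% for all coding windows. That ratio was 43.0 to 72.1 in the 9 libraries that did not stand apart, and 18.9 and 26.3 in the other two.

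Other gene lists give a scale for these shares. Of 12 diencephalic patterning genes, 11 had a peak in all 11 libraries, and the list had a median share of 41.0%, with 44.4% at Pax6, 38.5% at Lhx2, 49.5% at Six3 and 60.6% at Barhl2, all of which encode transcription factors. Tcf7l2, the exception among the 12 and named after its values were seen, encodes a transcription factor that adult thalamic neurons use, and it had a peak in 9 libraries with a mean share of 0.617%. Of 12 other TALE homeobox genes 4 were marked in all 11 libraries (Meis2, Meis1, Tgif1 and Mkx), and the list had a median share of 1.90%. None of 10 housekeeping genes reached 6 libraries, 4 had no peak in any list, and Gapdh, a glycolytic enzyme gene, had one in 2. The median of the 6 Irx genes was 34.1%. In the plot of covered share by list, 5 of the 6 Irx genes lie above every gene of the 4 lists that hold neither Irx nor patterning genes, and Irx6 (12.6%) does not. Irx6 is also below 11 of the 12 patterning genes, the lowest of which after Tcf7l2 is Shh (12.7%), which encodes a secreted signalling protein. Shares refer to windows of unequal length. In mean covered length, Meis2 (23563 bp) and Meis1 (14623 bp) exceeded every Irx gene, the highest of which was Irx4 (11319 bp). Every other gene of those 4 lists was below Irx1 to Irx5, with Tgif1 the highest (6699 bp).

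**Figure D1:**
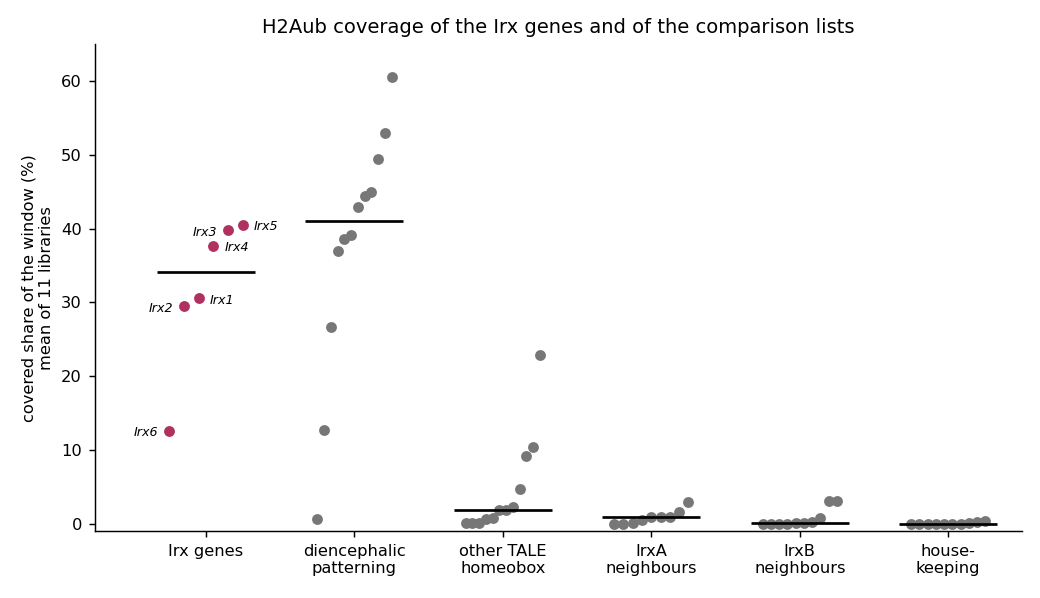
Covered share of the window (%), mean of 11 libraries, for each gene (points) of 6 lists, with the median of each list as a bar. The Irx genes lie at 12.6 to 40.5%, against a median of 41.0% for the diencephalic patterning genes and of 0.0323% for the housekeeping genes.

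The order of the members was tested within libraries, where both genes share one list. Irx6 was the lowest of the 6 in 11 of 11 libraries, and each of its 5 pairs gave the smallest p an exact sign-flip permutation test over 11 libraries can give (0.000977, two-sided). Irx5, Irx3 and Irx4 at the top did not differ beyond their spread: Irx5 exceeded Irx3 by 0.736 ± 1.35 percentage points (SE, p = 0.608, exact), Irx5 exceeded Irx4 by 2.84 ± 1.80 points (p = 0.149, exact) and Irx3 exceeded Irx4 by 2.104 ± 2.15 points (p = 0.354, exact). Irx1 and Irx2 did not differ from each other either (1.10 ± 1.93 points, p = 0.570, exact), although Irx1 was above Irx2 with 5-kb flanks (10.6 points, p = 0.00391, exact), in the body alone (13.9 points, p = 0.0195, exact) and with equal numbers of peaks (4.67 points, p = 0.0176, exact). All 6 differences between the upper 3 genes and these 2 were past 0.05, from 7.12 points (Irx4 over Irx1, p = 0.00391, exact) to 11.1 points (Irx5 over Irx2, p = 0.00195, exact). In total 11 of 15 pairs passed without adjustment, and 11 to 12 did when any one library was left out.

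The domains overlapped the gene bodies and extended unequally to either side. At Irx3 and Irx5 they ran over the short bodies into the higher-coordinate flank. The body of Irx3 was covered at 77.2% ± 24.6 (SD, n = 11), its upper flank at 55.1% ± 14.6 and its lower flank at 12.7% ± 9.49. Irx5 had 81.6% ± 10.5 of its body, 49.7% ± 15.1 of its upper flank and 16.3% ± 8.65 of its lower flank under peaks. Irx4 was covered mainly within its body (80.6% ± 15.4), with 27.9% ± 9.13 of the upper and 4.49% ± 3.93 of the lower flank. At Irx1 and Irx2 the bodies were covered at 70.0% ± 15.0 and 56.1% ± 14.6, with less in either flank. Irx6 lay the other way. Its body was covered at 22.4% ± 11.8, its lower flank at 18.6% ± 12.4, and its upper flank held a peak in 1 library, replicate 1 of cKO saline, one of the 2 that stood apart.

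Parts of each domain except that of Irx6 recurred at the same bases in every library. The length covered in all 11 was 2032 bp at Irx3, 1907 bp at Irx5, 1467 bp at Irx4, 1265 bp at Irx2 and 1185 bp at Irx1, but 1 bp at Irx6. The longest single stretches were one of 1295 bp at chr8:92359362-92360656 inside Irx5, one of 746 bp at chr8:91799035-91799780 inside Irx3 and one of 647 bp at chr13:72630620-72631266 inside Irx2. Irx6 had 441 bp covered in at least 9 libraries, with a stretch of 365 bp starting 3 bp inside its lower-coordinate end. The only Irx6 peak of cKO saline replicate 3, the shortest list, was 117 bp wide, which caps the length covered in all 11. Breaks recurred as well. Between covered parts of Irx1 a stretch of 590 bp from 2.71 to 3.30 kb past the lower-coordinate end was covered in at most 2 libraries, and at Irx2 a stretch of 3133 bp across the higher-coordinate gene end was likewise covered in at most 2. The maps of individual peaks show these common blocks and breaks.

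**Figure D2:**
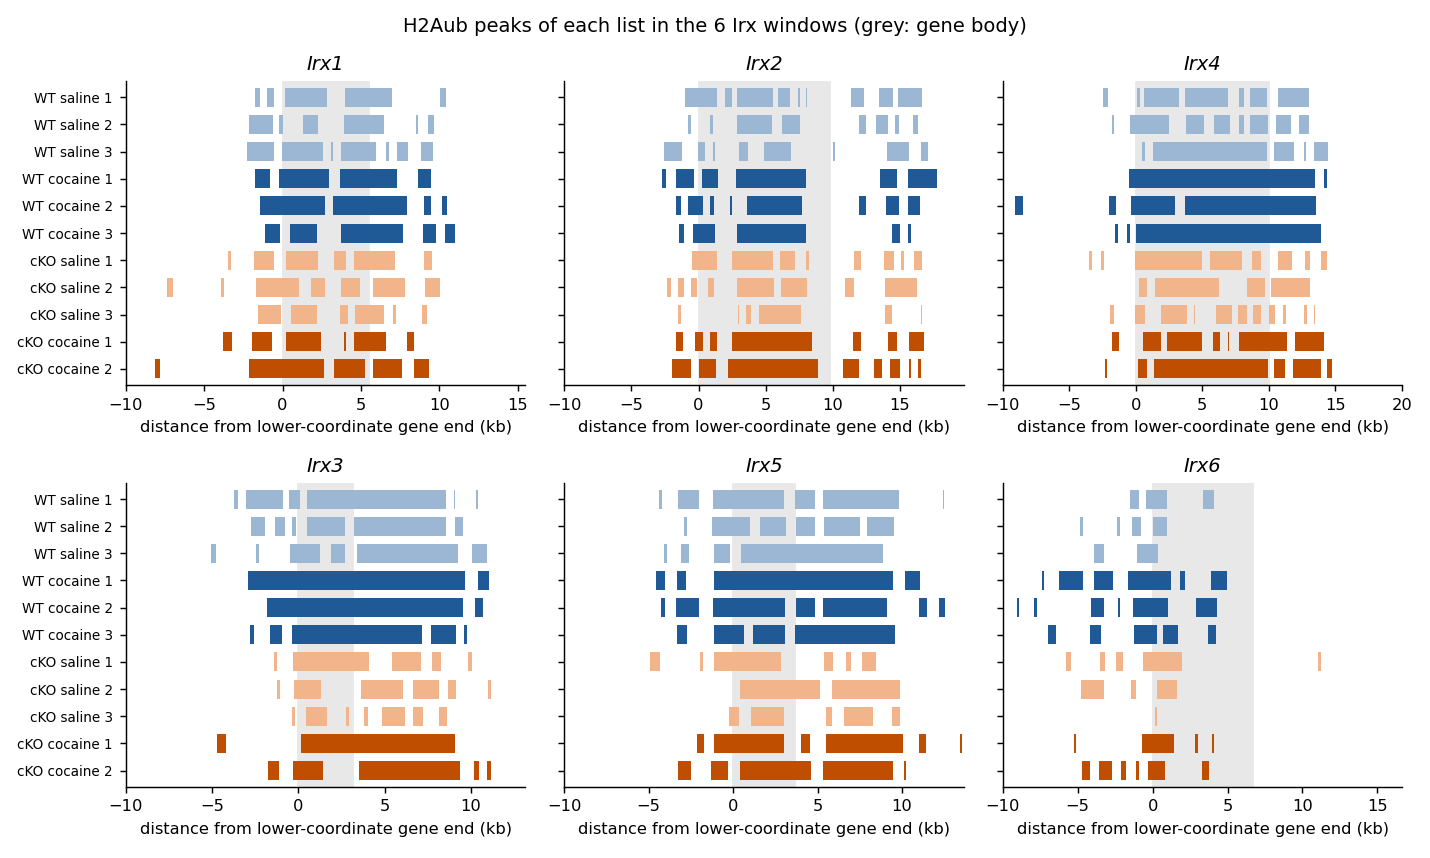
Peaks of the 11 lists in the 6 windows, one row per library, coloured by group, against the distance from the lower-coordinate gene end in kb, with the gene body in grey. Irx4 is covered by 2 to 4 peaks in WT cocaine and by 5 to 8 in WT saline, and Irx6 peaks cluster at its lower-coordinate end.

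Peaks in the windows were broad, and of moderate enrichment. The 359 peaks had a median width of 767 bp, and 21 were 5 kb or wider: 8 at Irx3, 6 at Irx4, 4 at Irx2, 3 at Irx5 and none at Irx1 or Irx6. The widest was 14011 bp, at Irx4 in WT cocaine replicate 1. Fold enrichment over input had a median of 3.87 and stayed between 2.77 and 5.38 in the 9 libraries. In the 2 libraries that stood apart it reached 16.9, in a peak of 380 bp beside Irx4 in replicate 1 of cKO saline. Of the 359 peaks, 33 (9.19%) had a q above 0.05.

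The 2 clusters differed in covered share as whole intervals, gene windows included, of 1331 kb (IrxA) and 902 kb (IrxB). Sequence outside the windows is described without a test. IrxB was covered at a larger share of its interval than IrxA in 11 of 11 libraries, 4.05% ± 1.41 against 2.39% ± 0.549 (SD), a difference of 1.67 ± 0.283 percentage points (SE, p = 0.000977, exact sign-flip test, two-sided, the smallest it can give). In IrxA a median of 91.9% of the covered length lay inside the 3 gene windows (71.6 to 99.5%), which take up 6.41% of the interval. In IrxB it was 63.8% (39.7 to 86.2%), with windows that take up 8.14%. Outside the windows, 1 kb of sequence was covered over 17.4 ± 9.91 bp in IrxB and over 3.12 ± 2.68 bp in IrxA. In 5-kb bins, 16 of 164 bins of IrxB and 3 of 247 bins of IrxA held a peak in at least 6 libraries, and without the 2 libraries that stood apart the counts for at least 6 libraries were 11 and 1. A single bin outside the gene windows held one in all 11, at chr8:91988511-91993510, 189 kb on the higher-coordinate side of Irx3, overlapping the non-coding gene Gm36670. Within it, 958 bp (chr8:91992200-91993157) were covered at the same bases in 6 to 9 libraries. A second recurrent site, 693 bp at chr8:92461174-92461866, lay 99.7 kb beyond Irx5 in sequence without an annotated gene and was covered in up to 8 libraries. No base of IrxA outside its windows was covered in 6 libraries. The plot of recurrence along the intervals shows bins in 11 libraries at the genes of both clusters, with more recurrent bins between them in IrxB.

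**Figure D3:**
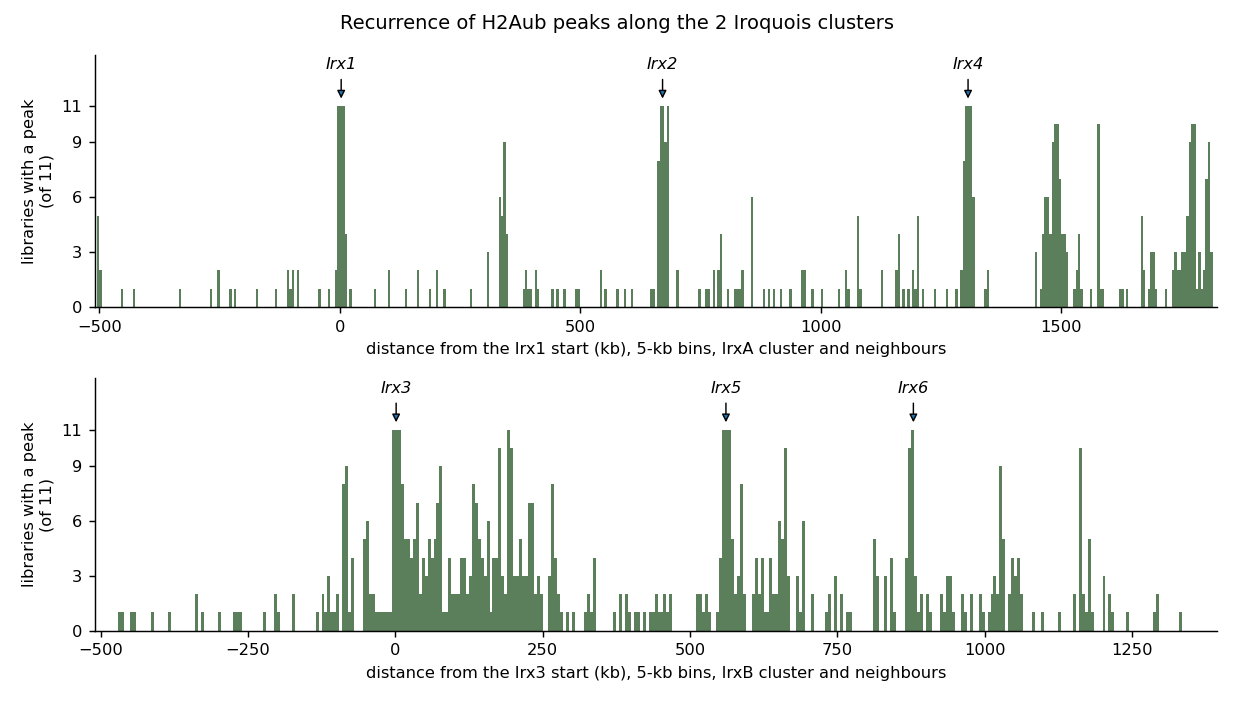
Number of libraries (of 11) with a peak in each 5-kb bin along both clusters and 500 kb on either side, against the distance in kb from the start of the first member. Bins at the 6 genes reach 11 libraries, and 16 bins of IrxB but 3 of IrxA outside the gene windows reach 6.

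Protein-coding neighbours within 500 kb of the intervals were marked less. Of 9 neighbours of IrxA, 1 had a peak in all 11 libraries (Slc12a7, a potassium-chloride cotransporter gene) and a further 3 in at least 6, namely Slc6a3 (the dopamine transporter, a direct target of cocaine) and Lpcat1 (a phospholipid acyltransferase) in 10 each and Tert (telomerase) in 7. Of 10 neighbours of IrxB none was marked in all 11, and 3 in at least 6: Slc6a2 (the noradrenaline transporter) and Mmp2 (a matrix metalloproteinase) in 10 each and Lpcat2 in 7. Mean shares of these 7 windows were 0.806 to 3.17%, below that of every Irx gene. In covered length Slc12a7 averaged 3087 bp (122 to 5330 bp), close to Irx6 with 3368 bp (117 to 7322 bp). The next neighbour, Slc6a2, averaged 1918 bp. Fto, whose introns are known to hold regulatory elements of Irx3, had a peak in 5 libraries and a mean share of 0.128%. It falls outside the rule for named neighbours and was chosen after its values were seen.

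In WT mice, cocaine libraries had longer covered lengths than saline libraries at all 6 genes on average, and 2 of the 6, Irx4 and Irx6, had no overlap between groups. Irx4 was covered over 14197, 14331 and 14455 bp in WT cocaine and over 10469, 9290 and 11397 bp in WT saline. The cocaine values lay within 258 bp of each other and above every other library of the study. Their mean exceeded that of saline by 3942 ± 614 bp (SE, ratio 1.38, p = 0.10, exact permutation test, two-sided). Irx6 was covered over 7322, 5156 and 4370 bp against 2830, 1895 and 2038 bp, the largest ratio of the 6 (2.49, difference 3362 ± 929 bp, p = 0.10, exact). With 3 libraries against 3 no exact p can be below 0.10, and the adjusted p was 1 for every gene (Benjamini-Hochberg over 21887 genes, with no gene below an unadjusted 0.05).

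Irx1, Irx2, Irx3 and Irx5 overlapped between WT groups, with ratios of 1.13 to 1.26 and p of 0.20 to 0.50 (exact). Every WT cocaine library above every WT saline library was the pattern of 6.73% of all coding genes and, a denominator chosen after seeing the data, of 34.0% of the 1713 marked in all 11 libraries. The opposite pattern held for 0.123% of all coding genes and for none of the 6. The count of 2 Irx genes rose to 5 without WT cocaine replicate 3 or without WT saline replicate 1, and to 3 without WT saline replicate 3. The shares of all coding genes rose as well, to 13.4%, 12.0% and 8.03% in this order, and those of the 1713 to 64.1%, 61.0% and 41.1%.

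These increases have to be read against lists that were 1.70 times longer in cocaine. The median ratio of the 1713 genes was 1.65. It fell with the length covered, from 1.82 for the 1184 genes covered over 1 to 5 kb on average to 1.28 for the 462 covered over 5 kb or more. Irx1 to Irx5, all in the latter class, had ratios of 1.13 to 1.38, and Irx6, in the former, of 2.49, larger than that of 82.0% of the 1713 genes. When covered length was divided by the total of its list, the difference at 5 of the 6 genes turned the other way, and at Irx2, Irx3 and Irx5 every WT cocaine library was then below every WT saline library, as was the case for 1.02% of all coding genes and 8.64% of the 1713. Irx6 alone of the 6 kept its direction, with 425, 344 and 421 bp per Mb of list in WT cocaine against 255, 341 and 242 in WT saline, an order seen at 3.36% of all coding genes and 10.2% of the 1713. With equal numbers of peaks per list, Irx4 and Irx6 remained above, against 3.40% of all coding genes and 26.4% of the 1713. On the unscaled lengths the same separation held for 4 of the 12 diencephalic patterning genes, 5 of the 12 other TALE genes, 2 of the 9 neighbours of IrxA, 1 of the 10 neighbours of IrxB and none of the 10 housekeeping genes, and none of these genes separated downwards. In the plot of WT saline against WT cocaine, Irx1 to Irx5 lie between the line of equal length and the median ratio, and Irx6 lies above both.

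**Figure D4:**
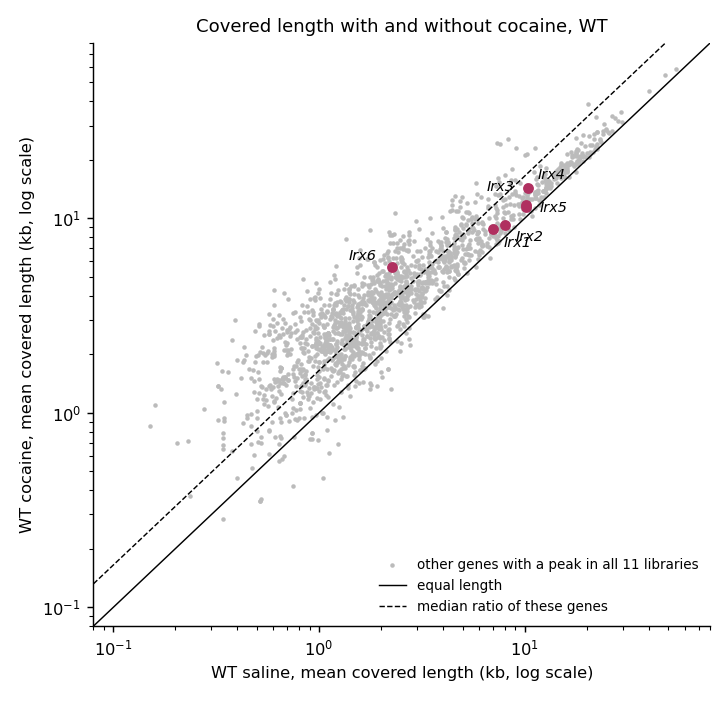
Mean covered length (kb, log scales) in WT saline and in WT cocaine for the 1713 genes with a peak in all 11 libraries (grey) and the 6 Irx genes (red), with lines for equal length and for the median ratio of 1.65. Irx6 (ratio 2.49) lies above the dashed line, the other 5 (1.13 to 1.38) below it.

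The widest peak of each window was compared in the same way. The widest peak of every WT cocaine library exceeded that of every WT saline library at 4 of the 6 genes (Irx1, Irx2, Irx4 and Irx6), against 6.78% of all coding genes and 34.0% of those marked in all 11 libraries. At Irx4 the widest peaks were 14011, 9918 and 13902 bp in cocaine and 3270, 2956 and 8511 bp in saline (ratio of means 2.57, p = 0.10, exact). The number of peaks in the Irx4 window went the other way, with 2, 4 and 3 peaks in cocaine against 7, 8 and 5 in saline, so that fewer and wider peaks covered the same gene. At Irx2 the widest peaks were 5221, 4086 and 5102 bp against 2686, 2609 and 1964 bp (ratio 1.99, p = 0.10, exact), while the covered length of that window overlapped between groups. At Irx3 WT cocaine replicate 3 (7533 bp) fell below the highest saline value (8026 bp). Irx5 overlapped too, with 10568, 4269 and 5898 bp against 4479, 2275 and 8438 bp (p = 0.60, exact). These widths were not scaled by list length, and the lists of WT cocaine were 1.70 times as long as those of WT saline.

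As a whole, IrxA was covered over 41124, 37667 and 33172 bp in WT cocaine and over 30476, 21661 and 29139 bp in WT saline, without overlap (difference 10229 ± 3581 bp, ratio 1.38, p = 0.10, exact). IrxB was covered over 59845, 44983 and 38311 bp against 42356, 23557 and 29345 bp, where the lowest cocaine library lay below the highest saline library (15960 ± 8450 bp, ratio 1.503, p = 0.20, exact). Without WT cocaine replicate 1 the IrxB difference was 9894 bp. Per Mb of list both intervals were lower in cocaine, by 673 and 462 bp per Mb. The plot of covered length by library gives the values of every gene.

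**Figure D5:**
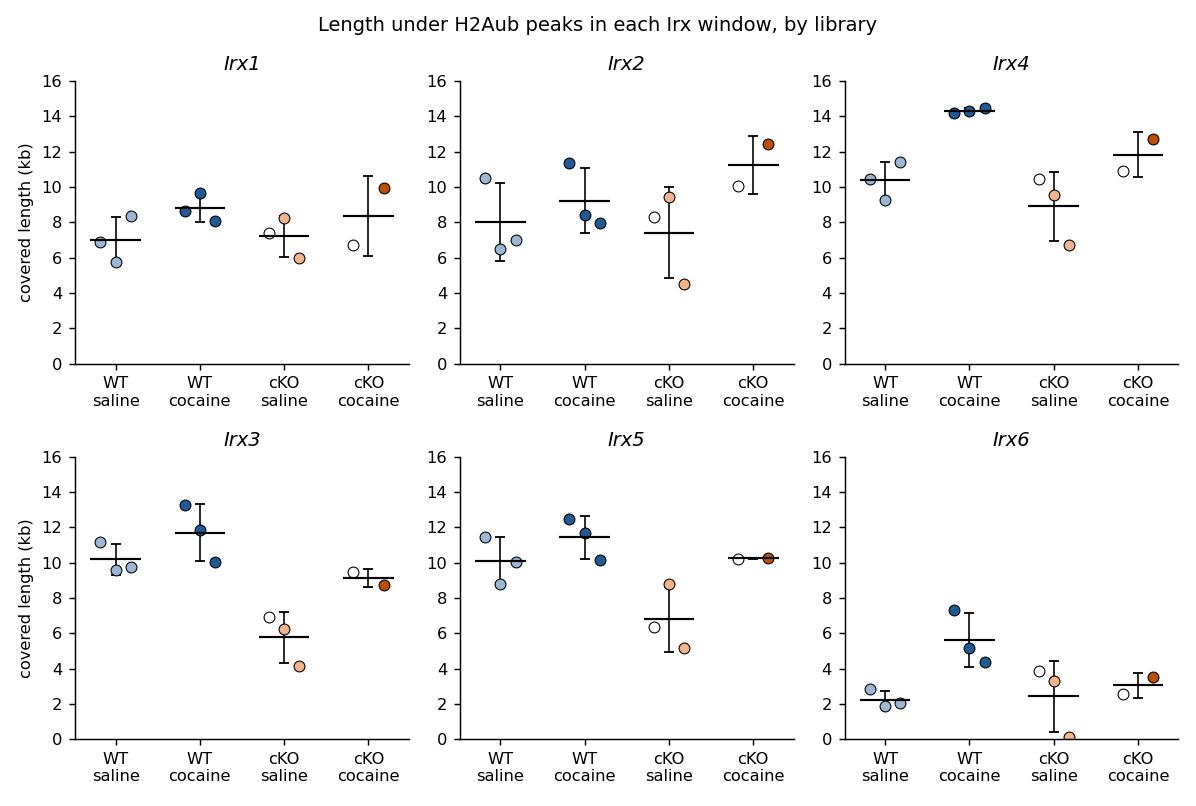
Covered length (kb) of the 6 windows in each library (points), with the group mean (bar) and SD (whiskers, n = 3, or 2 for cKO cocaine). Open points are the 2 libraries that stood apart, and WT cocaine lies above every other library at Irx4.

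In cKO mice, 4 genes (Irx2, Irx4, Irx3 and Irx5) had every cocaine library above every saline library, against 2.66% of all coding genes and 14.0% of those marked in all 11 libraries. None of the 6 showed the opposite (0.0548% of all coding genes). In the same comparison 4 of the 12 diencephalic patterning genes separated upwards, as did 2 of the 9 neighbours of IrxA, and none of the 12 other TALE genes, the 10 neighbours of IrxB or the 10 housekeeping genes did. Irx3 was covered over 9480 and 8753 bp in cKO cocaine and over 6930, 6260 and 4161 bp in cKO saline (3333 ± 910 bp, ratio 1.58, p = 0.10, exact, the smallest that 2 against 3 libraries allow). At Irx5 the values were 10227 and 10277 bp against 6375, 8808 and 5189 bp (ratio 1.51, p = 0.20, exact), and at Irx2 they were 10081 and 12411 bp against 8277, 9436 and 4527 bp (ratio 1.52, p = 0.20, exact). Irx4 had 10921 and 12741 bp against 10450, 9563 and 6691 bp (ratio 1.33, p = 0.20, exact), so that its groups were separated by 471 bp. The widest peak separated upwards at Irx2 (5937 and 6666 bp against 3056, 2750 and 3135 bp, p = 0.10, exact) and at Irx3 (8935 and 5824 bp against 4355, 2418 and 1356 bp, p = 0.10, exact), where 4.23% of all coding genes and 20.2% of the 1713 did.

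Irx6 did not separate in cKO mice, with 2570 and 3558 bp in cocaine against 3889, 3300 and 117 bp in saline (ratio 1.26, p = 0.90, exact). Replicate 3 of cKO saline, the shortest list, held 1 peak of 117 bp in that window. The median ratio of the 1713 genes in cKO mice was 1.38, and the lists of cKO cocaine were 1.23 times as long as those of cKO saline. No Irx gene separated when each list was reduced to its 7271 strongest peaks (0.758% of all coding genes) or when covered length was divided by the total of the list (3.75%), and Irx2 alone of the 6 did when the gene body was read without flanks (2.11%). Without the 2 libraries that stood apart, which leaves 1 cocaine against 2 saline libraries, the cocaine value was the highest at all 6 genes, as it was at 20.5% of all coding genes and 79.2% of the 1713.

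Neither interval separated in cKO mice. IrxA was covered over 35720 and 38212 bp in cocaine and over 36466, 28518 and 17322 bp in saline (9531 ± 5691 bp, p = 0.30, exact), and IrxB over 43946 and 35773 bp against 43309, 28302 and 12542 bp (11808 ± 9778 bp, p = 0.40, exact). With cKO saline replicate 3 left out, these differences were 4474 and 4054 bp, and with cKO saline replicate 1 left out they were 14046 and 19438 bp. Without cKO cocaine replicate 1 the IrxB difference was 7722 bp. With equal numbers of peaks both turned negative.

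The treatment effects of both genotypes were compared by exact permutation of the treatment labels inside each genotype (200 arrangements, smallest p 0.005). The effect in WT minus that in cKO was 698 bp at IrxA (p = 0.945, exact) and 4152 bp at IrxB (p = 0.80, exact). Leaving out single libraries moved these values between -3817 and 5755 bp and between -3477 and 11906 bp, with the lowest without cKO saline replicate 1 and the highest without cKO saline replicate 3, and per Mb of list both were negative. Among the genes the smallest p belonged to Irx6, whose effect was 2733 bp larger in WT (p = 0.25, exact), and at Irx2, Irx3 and Irx5 it was negative, at -2614, -1815.5 and -2127 bp (p of 0.38 to 0.47, exact). Leaving out single libraries kept these 4 signs but moved Irx6 between 1880 and 3892 bp, Irx2 between -3779 and -1171 bp, Irx3 between -2590 and -979.8 bp and Irx5 between -3136 and -1326 bp. The values nearest to 0 were those without cKO saline replicate 3 at Irx2 and Irx5, without WT cocaine replicate 3 at Irx3 and without WT cocaine replicate 1 at Irx6. No difference between genotypes in the response was detectable with these libraries.

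Comparing genotypes directly, Irx3 stood out after saline. Its covered length was below that of WT saline in every cKO saline library, 6930, 6260 and 4161 bp against 11187, 9615 and 9780 bp (difference -4410 ± 972 bp, ratio 0.567, p = 0.10, exact). Such a separation downwards was seen at 0.270% of all coding genes and at 2.04% of those marked in all 11 libraries, and upwards at 0.484% of all coding genes and at none of the 6. The widest Irx3 peak was likewise lower in every cKO saline library, with 4355, 2418 and 1356 bp against 8026, 5326 and 5870 bp (0.571% of all coding genes, 4.38% of the 1713). The widest Irx2 peak went the other way without overlap, with 3056, 2750 and 3135 bp in cKO saline against 2686, 2609 and 1964 bp in WT saline (ratio 1.23, p = 0.10, exact, against 0.662% of all coding genes and 1.87% of the 1713). The separation at Irx3 held at both stricter q thresholds, with equal numbers of peaks, per Mb of list (1.40% of all coding genes, 8.81% of the 1713) and without any one library, but not in the gene body without flanks. Per Mb of list the margin was narrow, with 982 bp per Mb in cKO saline replicate 3 against 1008 in WT saline replicate 1. Without WT saline replicate 2 the count was 3 (Irx4, Irx3 and Irx5), and without cKO saline replicate 2 it was 2 (Irx3 and Irx5), against 1.41% and 0.987% of all coding genes and 11.3% and 10.2% of the 1713. Irx5 was lower on average (ratio 0.672, p = 0.20, exact), with cKO saline replicate 2 at 8808 bp just above the lowest WT saline library at 8804 bp, and it separated with 5-kb flanks, where Irx3 and Irx5 were the 2 genes called, against 0.370% of all coding genes and 3.15% of the 1713. Irx1, Irx2, Irx4 and Irx6 had ratios of 0.857 to 1.08 (p of 0.40 to 0.90, exact), and the median ratio of the 1713 genes was 1.09. The 3 cKO saline lists covered 27.6, 7.67 and 4.24 Mb and the 3 WT saline lists 11.1, 5.55 and 8.41 Mb. The part of list length in these values was not tested beyond the settings named.

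After cocaine, 3 genes (Irx4, Irx3 and Irx6) had a lower covered length in both cKO libraries than in every WT library, against 1.77% of all coding genes and 11.9% of those marked in all 11 libraries. In covered length none of the 6 was higher in both, as 4.35% of all coding genes were. The widest Irx2 peak was higher in both, with 5937 and 6666 bp against 5221, 4086 and 5102 bp (ratio 1.31, p = 0.10, exact), against 4.22% of all coding genes and 4.20% of the 1713, and the widest Irx4 peak was lower in both (3601 and 8566 bp, p = 0.20, exact), against 2.66% and 16.5%. The largest relative difference was at Irx6 (3064 ± 699 bp against 5616 ± 1529 bp, SD, ratio 0.546, p = 0.20, exact). At Irx4 the ratio was 0.826 (p = 0.10, exact) and at Irx3 it was 0.778 (p = 0.20, exact). Irx6 alone of the 6 separated per Mb of list, against 2.94% of all coding genes and 17.4% of the 1713. These comparisons share libraries with those of treatment, so that Irx4 and Irx6, whose WT cocaine libraries were the highest of the study, enter both. Across the intervals cKO and WT did not separate, with ratios of 0.990 (IrxA) and 0.835 (IrxB) after cocaine and of 1.01 and 0.883 after saline (p of 0.40 to 1, exact).

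The definition of an H2Aub+ element used by the study, a region found in at least 2 replicates of a group, was applied to the gene ends, from 5 kb outside to 2 kb inside each end, because the annotation used here gives no strand. All 6 genes had such an element at one end or both in each of the 4 groups, and still did when every replicate was required. Under the first rule the share of all coding genes was 15.6% for the cocaine and 11.1% for the saline group of WT mice, and 11.1% and 9.63% for those of cKO mice. With every replicate required it was 10.8% in WT cocaine, 6.31% in WT saline and 4.99% in cKO saline, and cKO cocaine has only 2 replicates. Of the 1713 genes marked in all 11 libraries, 77.6 to 87.6% had one under the first rule and with every replicate required 79.98% did in WT cocaine, 65.1% in WT saline and 57.6% in cKO saline. With at least 2 replicates, Irx1, Irx2, Irx4, Irx3 and Irx5 carried it at both ends in each group, whereas Irx2 in cKO saline had it at the higher-coordinate end alone when every replicate was required. Irx6 carried it at the lower-coordinate end in each group and, under the rule of 2 replicates, at the higher-coordinate end in WT cocaine. That element reached the end through 280 bp of a single library, WT cocaine replicate 1, since elements join overlapping peaks. The one other library with a peak at that end was cKO saline replicate 1. In cKO saline with every replicate required, the Irx6 element rested in replicate 3 on its 1 peak of 117 bp. The widest element of Irx4 was 14631 bp in WT cocaine, 10336 bp in WT saline, 11246 bp in cKO cocaine and 8429 bp in cKO saline.

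Across libraries, the summed covered length of the 6 windows per Mb of list was compared with the same quantity at other genes. Among 5380 coding genes outside the intervals with a peak in at least 6 libraries, the 3 most alike were Gata3 and Hlx (Spearman's rho 1, over 11 libraries) and Dlx1 (0.991), all genes of transcription factors. All points share the list totals by which they were divided, which range from 4.24 to 27.6 Mb. The summed value was 3899 to 5305 bp per Mb in WT cocaine, 4809 to 7541 in WT saline, 2356 and 5220 in cKO cocaine and 1571 to 6296 in cKO saline.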

How the data were processed

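H2Aub ChIPmentation of mouse thalamus was analysed from 11 peak lists. A further 4 input libraries were not analysed here. As labels and paper describe, the authors trimmed reads with Cutadapt, aligned them to mm10 with Bowtie2, kept mapping quality above 30 and called broad peaks with MACS2 against input, 1 list per library. Besides peak positions, the deposited columns used or inspected were a whole-number score, the fold enrichment over input (a linear ratio), and −log10 values of p and of q. The deposited lists reach a q of 0.0997. The study states a minimum number of reads for every sample, but the depth of each library is not given in the sources used here.

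Within each list, peaks on the 19 autosomes and both sex chromosomes were merged, and covered length was computed in windows from a RefSeq gene table (GRCm38.p6). Groups followed the labels. Group differences were tested by exact permutation over libraries, contrasts within libraries by exact sign-flip tests (numpy, scipy and pandas, versions 2.4.6, 1.17.1 and 2.3.3), after tests on simulated lists. A gene was called where 2 groups did not overlap. All 6 members were named, neighbours if marked in at least 6 libraries, and at most 4 genes of each list by libraries and covered length. Members, lists and comparisons were chosen with earlier results of these data known. Alternatives were stricter q, equal peak numbers, scaling by list length, log2(bp + 100), peaks with at least 50% inside, smaller windows, left-out libraries and a replicate block. Shares of all coding genes under alternative settings, and those for gene-end elements, were added after seeing the data. Promoter sequences were not analysed here.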

Additional observations from a re-analysis of the deposited data

How the results depend on the processing

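The depth of each library is unknown beyond the minimum the study states, and list length limits every comparison between groups. Dividing covered length by list length (bp per Mb of list) turned most treatment differences. For WT cocaine minus saline it gave -672.82 at IrxA, -462.11 at IrxB, -242.24 at Irx1, -323.32 at Irx2, -266.51 at Irx4, -459 at Irx3 and -443.78 at Irx5. In cKO it gave -473.7 at IrxA, -87.591 at IrxB, -310.41 at Irx1, -67.588 at Irx2, -234.95 at Irx4, -64.095 at Irx3 and -162.48 at Irx5. The IrxA difference of genotypes after saline became -327.31, and the difference of treatment effects -199.12 (IrxA) and -374.52 (IrxB). Counts of separated genes became 1 (WT cocaine above saline), 0 (cKO cocaine above saline) and 1 (cKO below WT after cocaine). With equal numbers of peaks, cKO cocaine minus saline became -645.67 bp at IrxA, -131.67 at IrxB, -738.83 at Irx1, -237 at Irx4 and -319.67 at Irx6, its count 0, and the IrxA genotype difference after saline -7827 bp. That difference was -1827.7 bp at q of at most 0.05, -3083.7 bp at q of at most 0.01 and -0.031 as log2(bp + 100). The difference of treatment effects was -2508.8 bp (IrxA) and -795.67 bp (IrxB) at q of at most 0.01, and -0.022 and -0.066 on the log2 scale. Gene bodies alone gave counts of 1 (cKO cocaine above saline) and 0 (cKO below WT after saline), and Irx4 minus Irx3 of 3.39 points. Flanks of 5 kb gave 2 genes with cKO below WT after saline (0.370% of all coding genes), and q of at most 0.01 gave Irx3 minus Irx5 of 0.78 points. The cause of these changes was not tested.

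Leaving out single libraries moved the IrxA genotype difference after saline between -4172 and 5400 bp, that after cocaine between -2429.5 and 1546.5 bp, and the difference of treatment effects between -3817 and 5755 bp at IrxA and between -3477.2 and 11906.3 bp at IrxB. The IrxB genotype difference after saline ran from -11330.7 bp (without cKO saline replicate 1) to 4052.8 bp (without cKO saline replicate 3). After cocaine it ran from -12554.5 bp (without WT cocaine replicate 3) to -1787.5 bp (without WT cocaine replicate 1). Counts of separated genes ran from 2 to 5 (WT cocaine above saline) and from 1 to 3 (cKO below WT after saline). Irx1 in cKO ran from -466 to 2745 bp, Irx6 in cKO from -530.5 to 1355.5 bp and Irx3 minus Irx5 from -1.27 to 0.21 points. Without both libraries that stood apart, the IrxA values were -4172 bp (genotype, saline), 891 bp (genotype, cocaine) and -5063 bp (difference of effects).

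Same-numbered WT libraries did not deviate together (r of -0.012, 0.066 and -0.0039 across 5386 genes), and in cKO there were 2 pairs (0.485 and 0.371). With 2 cKO cocaine libraries the deviations from their mean are equal and opposite, so these 2 values are not independent and cannot show pairing. The first of them joins the 2 libraries that stood apart. Of the WT cocaine libraries, replicate 2 alone correlated best with its own number. With a replicate block, WT cocaine minus saline was 10229 bp at IrxA and 15960 bp at IrxB (p = 0.25, exact, the smallest 3 pairs allow), and Irx6 in cKO turned to -530.5 bp. Among the other results fitted with the block none changed its direction.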
